A study of Mus musculus with 12 samples.

Results

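The genes described here encode subunits of voltage-gated calcium channels (symbols starting with Cacn), voltage-gated sodium channels (Scn) and hyperpolarisation-activated HCN channels (Hcn). They were taken by symbol from the annotation of the array, and each probe set (the group of short probes that reports 1 transcript) had to be assigned to exactly 1 such gene. This gave 48 of 22626 probe sets, for 33 of 12393 genes. The rule used gene symbols and no measured value.

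RNA from whole cerebellum of 12 mice of the strain BALB/c Npc1 was hybridised to 12 Affymetrix arrays, 1 animal per array and 3 per group. The groups were Npc1-/- at postnatal day 49 (P49), Npc1+/+ at P49, Npc1-/- at day 21 (P21) and Npc1+/+ at P21. Npc1 encodes a lysosomal cholesterol transporter, and its loss causes Niemann-Pick disease type C, with progressive loss of Purkinje cells in the cerebellum. The mice carry the constitutive genotype, were kept on standard chow and received no agent, and 11 were labelled female and 1 (Npc1-/- P49 replicate 1) male.

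The Npc1 probe set read 8.25 to 10.53 in the 6 Npc1-/- arrays and 11.06 to 11.75 in the 6 Npc1+/+ arrays, with no overlap. Values throughout are log2(intensity + 16) after quantile normalisation, unless called a difference, and a difference of 1 is a change of 2-fold on that scale. Of the arrays labelled female, 3 went against that label at Xist (9.28 to 13.36, against 15.61 to 15.86 in the others): Npc1-/- P21 replicates 2 and 3 and Npc1+/+ P21 replicate 2. The Y-linked gene Eif2s3y read 9.25, 12.67 and 12.72 in these 3, against 4.35 to 8.91 in the rest. The array labelled male had an Xist value of 15.63, within the range of the others, so it too went against its label. It is not counted among the 3 arrays. Low Xist was thus seen at P21 alone, in both genotypes. Beyond the fits without these arrays, the part of sex in the age results was not tested. Without these 3 arrays, which leaves 1 Npc1-/- array at P21, the difference turned sign for 3 of the 24 tested members in the genotype comparison at P21 and for none at P49. With age it turned for 6 members in Npc1-/- and for 4 in Npc1+/+. The change of the genotype difference between the ages turned for 7. Where a difference printed for a named member changed its call or its sign without these arrays, this is stated beside it or with the counts of calls. Differences carry limma's standard error (SE, n = 3 animals per group), and adjusted p-values are limma's, over 13576 probe sets with a mean intensity of at least 959.1 (9.93 on the log2 scale). The threshold was 0.05, and the small number of arrays limits the precision of each value.

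As background, a voltage-gated calcium channel is built around a pore-forming α1 subunit, with a β subunit on the inside of the membrane and an α2δ subunit on the outside, which govern its traffic and gating. Several γ subunits also act as carriers of AMPA receptors. A sodium channel has an α pore subunit and β subunits and carries the rising phase of the action potential, while HCN channels pass a cation current on hyperpolarisation. Purkinje cells, the output neurons of the cerebellar cortex, rely on P/Q-type calcium current and resurgent sodium current for their regular firing, and mice with defects in Cacna1a (tottering), Cacna2d2 (ducky), Cacnb4 (lethargic) or Cacng2 (stargazer) are ataxic.

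Of the 48 probe sets, 24 passed the filter, for 18 genes. The tested probe sets comprised 5 of 11 for calcium channel α1 subunits, 3 of 6 for α2δ, 4 of 6 for β, 4 of 10 for γ, 6 of 11 for sodium channel α subunits, 1 of 2 for the sodium channel β subunit Scn3b and 1 of 2 for HCN channels. The tested probe sets had means of 10.05 to 15.09. The other 24 had means of 6.72 to 9.93, and 17 of them lay below the filter on every array. For 15 genes no probe set was tested. These were Cacna1b, Cacna1e, Cacna1f, Cacna1h and Cacna1s among the α1 subunits, Cacng1, Cacng3, Cacng6 and Cacng8 among the γ subunits, Scn3a, Scn7a, Scn9a, Scn10a and Scn11a among the sodium channels, and Hcn3. Whether these transcripts were above the background of the array is not known, because detection calls were not used here.

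At P49, 1 of the 24 tested probe sets was lower in Npc1-/- than in Npc1+/+ cerebellum and none was higher. The one that fell was Cacna2d2. Over all tested probe sets 2.08% were called in either direction and 0.825% were called lower (171 higher and 112 lower, or 146 and 146 when arrays were scaled to a common median). Differences below 0 were seen in 16 of 24 members, against 54.4% of all probe sets. The median difference was -0.16 over the members and -0.02 over all probe sets. At an unadjusted p under 0.05 there were 5 members, and 10.5% of all probe sets. At P21 no member was called, against 0.081% of all probe sets, while 5 members and 9.83% of all probe sets were at an unadjusted p under 0.05. The median difference at P21 was 0.12 over the members and -0.01 over all. At that age 16 of 24 members were above 0, while 51.1% of all probe sets were below 0.

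**Figure D1:**
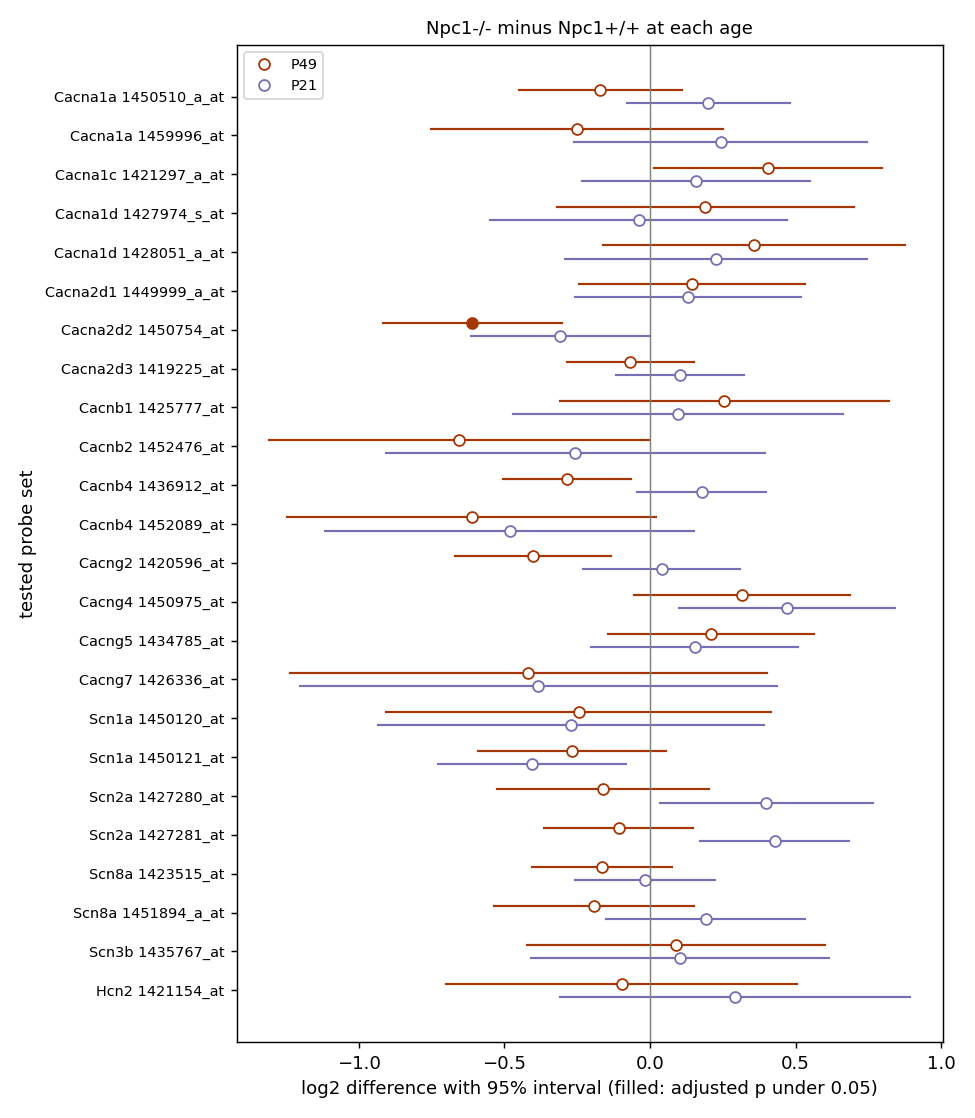
Difference between Npc1-/- and Npc1+/+ cerebellum for each of the 24 tested probe sets, with its 95% interval, at P49 (upper, brown) and at P21 (lower, violet). The horizontal axis is the log2 difference, and filled circles have an adjusted p under 0.05: only Cacna2d2 at P49, at -0.61, is filled.

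Cacna2d2 encodes α2δ-2, the α2δ subunit that Purkinje cells use. Its tested probe set (1450754_at) read 12.83, 12.53 and 12.63 in Npc1-/- at P49, against 13.39, 13.16 and 13.26 in Npc1+/+ at P49. All 3 Npc1-/- animals lay below all 3 Npc1+/+ animals. The means were 12.66 ± 0.15 and 13.27 ± 0.12 (SD, n = 3 each). The difference was -0.61 ± 0.14 (SE), a fold of 0.656 with a 95% interval of -0.92 to -0.30 on the log2 scale, and the adjusted p from limma was 0.0431. At P21 the values were 12.64, 13.11 and 12.92 in Npc1-/- and 13.30, 13.29 and 13.00 in Npc1+/+. These groups overlapped, and the difference of -0.31 ± 0.14 had an adjusted p of 0.506; without the 3 arrays against their sex label it was -0.51 (adjusted p = 0.501). The change between the genotype differences at P49 and P21 was -0.30 ± 0.20 (adjusted p = 0.778), so a larger effect at P49 was not shown.

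The call at P49 was close to the threshold: it held in 12 of 22 alternative analyses, over which the adjusted p ran from 0.00882 to 0.235 with the same sign in all 22. With the replicate number as a block, the adjusted p was 0.0816 and no member was called. Without the mean-variance trend it was 0.0655. It was also lost without Npc1-/- P49 replicate 2 (0.235) or 3 (0.188), without Npc1+/+ P49 replicate 1 (0.206), 2 (0.0879) or 3 (0.13), without Npc1+/+ P21 replicate 1 (0.0622) or 2 (0.0654), and without Npc1-/- P21 replicate 3 (0.0503). It held without the 3 arrays against their sex label. The other 2 probe sets of Cacna2d2 were below the filter, with means of 6.97 and 8.78. In the fit of all probe sets without the filter, 1426185_at was at a fold of 2.82 in Npc1-/- at P49 (95% interval 0.31 to 2.68 on the log2 scale, adjusted p = 0.348), opposite in direction to the tested probe set. The difference of 1451955_a_at was -0.10 ± 0.88 (adjusted p = 0.994). Neither was called, and whether either rises above background is not known.

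At P49 most Purkinje cell markers were lower in Npc1-/-, as was Cacna2d2. Of 13 tested Purkinje cell markers, 10 were lower in Npc1-/- at P49 (median difference -0.92), among them the calcium-binding protein gene Calb1 (-0.92), Pcp2 (-0.63) and Rgs8 (-1.09), and none was higher. Their mean level was 14.39 to 14.90 in Npc1-/- and 15.43 to 15.47 in Npc1+/+ at P49. At P21 none of the 13 was called with limma, 1 was at an unadjusted p under 0.05, and the ranges overlapped, at 15.18 to 15.46 in Npc1-/- and 15.07 to 15.42 in Npc1+/+. Of the 13, 9 were above 0 and 4 below 0 at P21 (median difference 0.075), where Cacna2d2 was at -0.31. In bulk tissue, fewer cells of a type and less RNA per cell cannot be told apart. The part of the Purkinje cell markers in the Cacna2d2 result was not tested.

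Of 7 tested granule neuron markers, none was called at P49 and none was at an unadjusted p under 0.05, with mean levels of 15.38 to 15.45 in Npc1-/- and 15.37 to 15.53 in Npc1+/+. Of 8 tested microglia markers, 7 were higher in Npc1-/- at P49 (median difference 3.23). Their mean level was 13.31 to 13.60 in Npc1-/-, against 10.81 to 10.99 in Npc1+/+. Of 7 tested markers of astrocytes and Bergmann glia, 2 were higher in Npc1-/- at P49, Gfap (3.31) and Aqp4 (0.93), and the mean level of the 7 was 14.45 to 14.58 in Npc1-/- and 13.80 to 13.99 in Npc1+/+. Of 3 tested markers of cerebellar nuclei and brainstem neurons, 1 was lower, the neurofilament gene Nefh (-0.84). Of 2 tested choroid plexus markers, none was called at P49, and 2 were at an unadjusted p under 0.05 by limma (median difference 2.49). Their mean level at P49 was 12.77 to 15.04 in Npc1-/- and 11.11 to 11.94 in Npc1+/+. At P21 it varied widely within both genotypes, at 10.73 to 14.92 in Npc1-/- and 10.73 to 14.21 in Npc1+/+. The part of these markers in the channel results was not tested either.

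**Figure D2:**
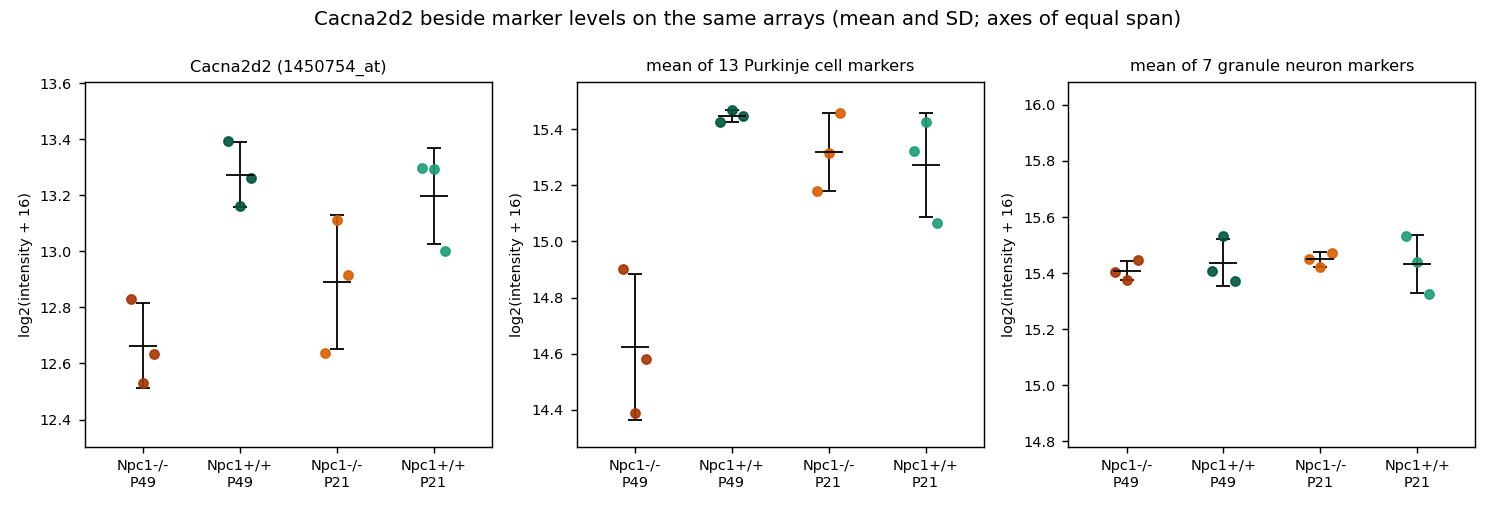
Cacna2d2 (left), the mean of 13 Purkinje cell markers (centre) and the mean of 7 granule neuron markers (right) on each of the 12 arrays, as log2(intensity + 16) on axes of equal span. Points are animals and bars are mean and SD; at P49 the first 2 panels show Npc1-/- below Npc1+/+ without overlap, and the right panel shows overlapping groups.

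The other tested α2δ members were not called between the genotypes. Cacna2d3, which encodes α2δ-3, read 12.99, 13.14 and 13.04 in Npc1-/- at P49, against 12.98, 13.22 and 13.18 in Npc1+/+ at P49. The genotypes overlapped, with a difference of -0.07 and a 95% interval of -0.29 to 0.15. Cacna2d1, which encodes α2δ-1, had a difference of 0.15 at P49 (adjusted p = 0.881). A test of Cacna2d2 against the other α2δ genes was not made.

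Groups that did not overlap at P49 were found for 9 of 24 members, 3 higher and 6 lower in Npc1-/-, against 22% of all probe sets in either direction. In the main analysis Cacna2d2 was the only one of them with an adjusted p under 0.05. The others that were lower in every Npc1-/- animal were both probe sets of Cacnb4, Cacng2, Cacng7 and 1 of Scn1a. Those that were higher were Cacna1c, a pore subunit of L-type channels (0.40 ± 0.18, adjusted p = 0.452), Cacng5 and Cacnb1. For Cacnb1 the Npc1+/+ mean of 9.90 lay below the filter. At P21 the groups did not overlap for 3 of 24 members, against 11.7% of all probe sets, which is near the background.

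With age, Cacna2d3 fell in both genotypes. Its values at P21 were 13.84, 13.78 and 13.74 in Npc1-/- and 13.76, 13.62 and 13.66 in Npc1+/+. Every P49 animal named above lay below every P21 animal of its genotype. In Npc1-/- the difference between P49 and P21 was -0.73 ± 0.10, a fold of 0.603 (adjusted p = 0.0014), and it was called in 22 of 22 alternative analyses. In Npc1+/+ it was -0.56 ± 0.10, a fold of 0.679 (adjusted p = 0.0271). That call was lost without any 1 of the 6 Npc1+/+ arrays: the adjusted p without P49 replicates 1 to 3 was 0.111, 0.0859 and 0.107, and without P21 replicates 1 to 3 it was 0.125, 0.104 and 0.0931. It was also lost with the replicate block (0.0568) and without the mean-variance trend (0.052). The 2 falls differed by -0.17 ± 0.14 (adjusted p = 0.842).

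In Npc1-/-, 2 of 24 members were lower at P49 than at P21 and none was higher, against 4.58% of all probe sets called in either direction and 2.45% called lower. In Npc1+/+, 1 of 24 was lower and none was higher, against 0.575% in either direction and 0.464% lower. Over all probe sets 289 were higher and 333 lower with age in Npc1-/-. When arrays were scaled to a common median the split was 184 and 873, the median of all probe sets was -0.12 and that of the members -0.31, against -0.17 for the members in the quantile-normalised values. Under that scaling 5 members were called lower: Cacna2d3, Cacnb4, Cacng2, Scn2a and Cacna1a. The same 5 genes were called lower without Npc1-/- P21 replicate 3, with Scn1a called higher. Without the 3 arrays against their sex label, Cacna2d3, Cacng2, Scn2a, Cacna1d and Cacna1a were called lower and Cacng7 and Scn1a higher, from 1 remaining Npc1-/- P21 array. Cacng7 then had a difference of 1.28 (adjusted p = 0.0296), against 0.32 with all arrays and -0.16 without Npc1-/- P21 replicate 1, so its direction rests on single arrays.

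**Figure D3:**
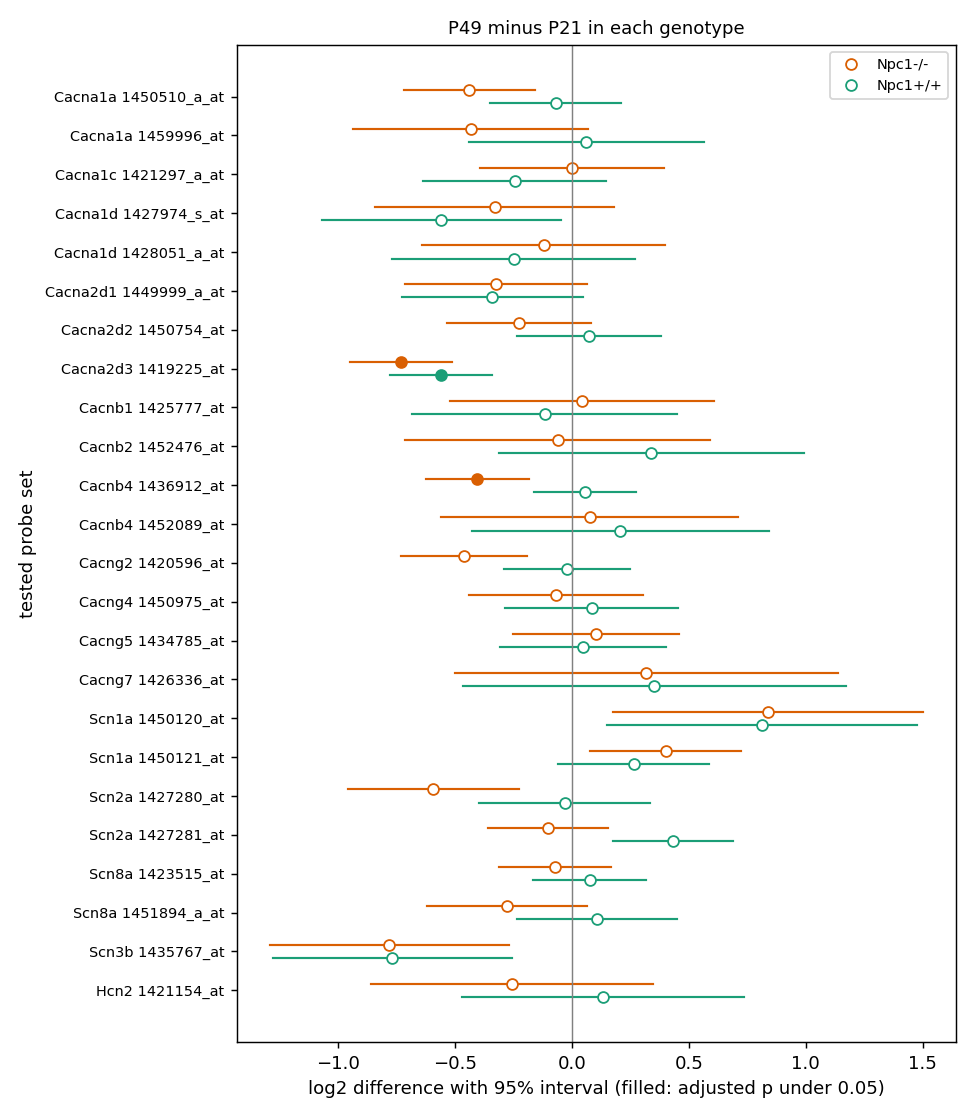
Difference between P49 and P21 for each of the 24 tested probe sets, with its 95% interval, in Npc1-/- (upper, orange) and in Npc1+/+ (lower, green). The horizontal axis is the log2 difference, and filled circles have an adjusted p under 0.05: Cacna2d3 in both genotypes and 1 probe set of Cacnb4 in Npc1-/-.

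The second member called with age in Npc1-/- was Cacnb4, which encodes the β4 subunit, abundant in cerebellum. Its probe set 1436912_at read 14.89, 14.88 and 14.82 in Npc1-/- at P49 and 15.18, 15.50 and 15.13 in Npc1-/- at P21. All P49 animals lay below all P21 animals. The difference was -0.40 ± 0.10, a fold of 0.756 (adjusted p = 0.0389). In Npc1+/+ the values were 15.19, 15.14 and 15.12 at P49 and 15.22, 15.08 and 14.98 at P21, which overlapped. At P49 the genotype difference of -0.28 ± 0.10 had an adjusted p of 0.276, although the groups did not overlap. It was called in 1 of 22 alternative analyses, with only the arrays of the groups compared. The genotype comparison at P49 and the age comparison in Npc1-/- share the Npc1-/- P49 arrays.

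The age call for Cacnb4 held in 10 of 22 alternative analyses, with adjusted p-values of 0.00663 to 0.187. It was lost with no filter (0.0599), with only the arrays of the groups compared (0.187), without the mean-variance trend (0.0852) and without the 3 arrays against their sex label (0.111). It was also lost without Npc1-/- P49 replicate 1 (0.0867), 2 (0.124) or 3 (0.137), Npc1+/+ P49 replicate 1 (0.0576), 2 (0.0584) or 3 (0.0596), Npc1-/- P21 replicate 2 (0.0662) or Npc1+/+ P21 replicate 2 (0.0608). The second probe set of Cacnb4 (1452089_at) read 14.05, 13.38 and 13.40 in Npc1-/- at P49, against 12.80, 13.77 and 14.02 at P21. In Npc1+/+ it read 14.38, 14.14 and 14.14 at P49 and 14.46, 14.07 and 13.51 at P21. The ages overlapped in both genotypes, and in Npc1-/- the difference was 0.08 ± 0.29 (0.80 without the 3 arrays against their sex label, adjusted p = 0.143), so the fall with age was seen in 1 of the 2 probe sets. Its genotype difference at P49 was -0.61 ± 0.29 (adjusted p = 0.505).

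**Figure D4:**
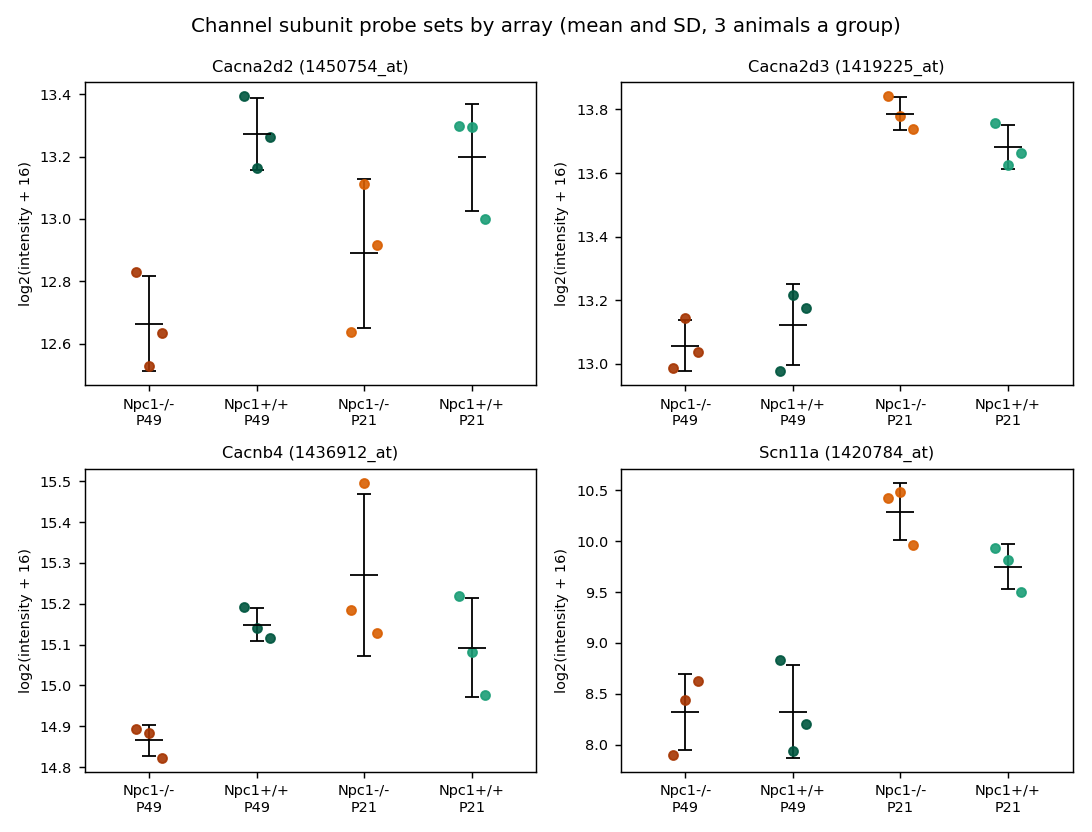
Values of Cacna2d2, Cacna2d3, Cacnb4 and Scn11a on each of the 12 arrays, as log2(intensity + 16), with each panel on its own axis. Points are animals and bars are mean and SD; Cacna2d2 is low in Npc1-/- at P49, Cacna2d3 is lower at P49 in both genotypes, Cacnb4 is low in Npc1-/- at P49, and Scn11a is lower at P49 in both genotypes.

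The start regions of the 3 genes with a called probe set are shown here. Whether these regions have a part in the falls described above was not tested. Each is the RefSeq window (GRCm38.p6) that runs from 250 bases before to 50 bases after the start, 5′ to 3′ on the gene's strand. The Cacna2d2 window is chr9:107399630-107399929 (+), that of Cacna2d3 is chr14:29721815-29722114 (−) and that of Cacnb4, which has 3 windows, is the most upstream, chr2:52676094-52676393 (−). Capitals mark matches to the GC box GGGCGG or its reverse complement CCGCCC, and neighbouring matches may overlap.
Cacna2d2: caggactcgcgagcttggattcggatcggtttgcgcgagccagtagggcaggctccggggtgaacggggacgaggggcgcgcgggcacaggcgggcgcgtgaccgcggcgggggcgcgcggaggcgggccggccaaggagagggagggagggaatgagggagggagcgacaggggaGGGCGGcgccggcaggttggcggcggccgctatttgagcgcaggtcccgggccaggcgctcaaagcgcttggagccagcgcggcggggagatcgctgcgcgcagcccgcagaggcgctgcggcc
Cacna2d3: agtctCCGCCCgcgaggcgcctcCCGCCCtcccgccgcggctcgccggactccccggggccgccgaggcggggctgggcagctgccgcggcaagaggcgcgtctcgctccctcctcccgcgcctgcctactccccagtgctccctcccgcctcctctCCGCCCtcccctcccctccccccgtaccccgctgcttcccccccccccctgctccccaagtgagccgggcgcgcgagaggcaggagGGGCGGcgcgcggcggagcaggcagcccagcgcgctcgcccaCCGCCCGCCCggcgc
Cacnb4: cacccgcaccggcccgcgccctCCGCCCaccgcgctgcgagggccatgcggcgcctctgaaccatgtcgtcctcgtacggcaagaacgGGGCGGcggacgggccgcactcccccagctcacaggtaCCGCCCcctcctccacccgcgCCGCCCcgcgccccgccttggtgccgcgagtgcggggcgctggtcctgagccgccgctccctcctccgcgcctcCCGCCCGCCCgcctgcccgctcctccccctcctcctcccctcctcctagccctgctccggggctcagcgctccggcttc
The GC box was found 1 time in the Cacna2d2 window and 6 times in each of the other windows. Of 32851 windows of the same length, 35.7% held at least 1. The number of matches per window is not given for these, so the counts of 6 have no matching share. None of the 3 windows held the E-box CACGTG, the cyclic AMP response element TGACGTCA or the TATA box TATAAA on either strand, which were in 7.15%, 1.79% and 13.6% of all windows. A match or its absence describes these letters alone.

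Among the pore subunits of calcium channels no tested probe set was called in any comparison by limma in the main analysis. Cacna1a, the P/Q-type pore subunit, read 12.89, 13.16 and 13.00 in Npc1-/- at P49 and 13.61, 13.58 and 13.18 in Npc1-/- at P21 with 1450510_a_at. The groups did not overlap. The difference was -0.44 ± 0.13 (adjusted p = 0.075), and 3 of 22 alternative analyses called it. Its values in Npc1+/+ were 13.14, 13.22 and 13.21 at P49 and 13.30, 13.35 and 13.12 at P21, which overlapped. The second probe set had an almost equal difference in Npc1-/-, of -0.43 ± 0.23 (adjusted p = 0.325). Cacna1d, an L-type pore subunit, had a difference of -0.56 ± 0.24 between P49 and P21 in Npc1+/+ (1427974_s_at, adjusted p = 0.47). That difference was called in 1 of 22 alternative analyses, with only the arrays of the groups compared.

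Among the γ subunits, Cacng2 encodes stargazin, an AMPA receptor carrier. It read 13.00, 12.81 and 12.87 in Npc1-/- at P49, against 13.32, 13.07 and 13.49 in Npc1+/+ at P49. All Npc1-/- animals lay below all Npc1+/+ animals, and the difference was -0.40 ± 0.12 (adjusted p = 0.17). At P21 it read 13.50, 13.30 and 13.27 in Npc1-/- and 13.27, 13.43 and 13.25 in Npc1+/+, and the groups overlapped. The difference between P49 and P21 in Npc1-/- was -0.46 ± 0.12 (adjusted p = 0.0525), which 6 of 22 alternative analyses called. Cacng4, another AMPA receptor carrier, was higher in every Npc1-/- animal than in any Npc1+/+ animal at P21, with a difference of 0.47 ± 0.17 (adjusted p = 0.443). Among the β subunits other than Cacnb4, Cacnb2 had a difference of -0.66 ± 0.30 at P49 (adjusted p = 0.474), with a 95% interval of -1.31 to -0.004.

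No sodium channel probe set was called by limma in the main analysis. Scn2a encodes Nav1.2, an α subunit of unmyelinated axons and of axon initial segments. Its probe set 1427281_at read 13.39, 13.64 and 13.71 in Npc1-/- at P21, against 13.19, 13.16 and 13.10 in Npc1+/+ at P21. All Npc1-/- animals lay above all Npc1+/+ animals, and the difference was 0.43 ± 0.12 (unadjusted p = 0.00311, adjusted p = 0.336). Without the 3 arrays against their sex label it was 0.24 (adjusted p = 0.748). At P49 it read 13.56, 13.38 and 13.49 in Npc1-/- and 13.65, 13.71 and 13.38 in Npc1+/+, and the groups overlapped. The difference between P49 and P21 in Npc1+/+ was 0.43 ± 0.12 (adjusted p = 0.19), and none of 21 alternative analyses called it. The genotype differences at the 2 ages differed by -0.53 ± 0.17 (adjusted p = 0.338). None of 20 alternative analyses called 1427281_at in that comparison. The other Scn2a probe set, 1427280_at, was called in it without Npc1-/- P21 replicate 3. The second Scn2a probe set (1427280_at) read 14.41, 14.69 and 14.67 in Npc1-/- at P49 and 14.71, 14.69 and 14.86 in Npc1+/+ at P49. At P21 it read 15.30, 15.56 and 14.69 in Npc1-/- and 14.70, 14.85 and 14.79 in Npc1+/+. Both pairs of groups overlapped, with 2 of the 3 Npc1-/- P21 animals above all others. Its genotype difference at P21 was 0.40 ± 0.17 (adjusted p = 0.498), and its difference between P49 and P21 in Npc1-/- was -0.59 ± 0.17 (adjusted p = 0.0661), with groups that did not overlap before rounding.

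Scn1a encodes Nav1.1, an α subunit of inhibitory neurons and Purkinje cells. Its probe set 1450121_at was lower in every Npc1-/- animal than in any Npc1+/+ animal at P21, with a difference of -0.40 ± 0.15 (adjusted p = 0.448). The second Scn1a probe set (1450120_at) had a difference between P49 and P21 of 0.84 in Npc1-/- (adjusted p = 0.145) and 0.81 in Npc1+/+ (adjusted p = 0.387). Scn8a encodes Nav1.6, the main carrier of resurgent sodium current in Purkinje cells. Its difference at P49 was -0.16 with a 95% interval of -0.41 to 0.08 (1423515_at), and -0.19 with an interval of -0.53 to 0.15 (1451894_a_at). The interval of Cacna2d2, -0.92 to -0.30, overlapped both. A test of Scn8a against Cacna2d2 was not made.

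**Figure D5:**
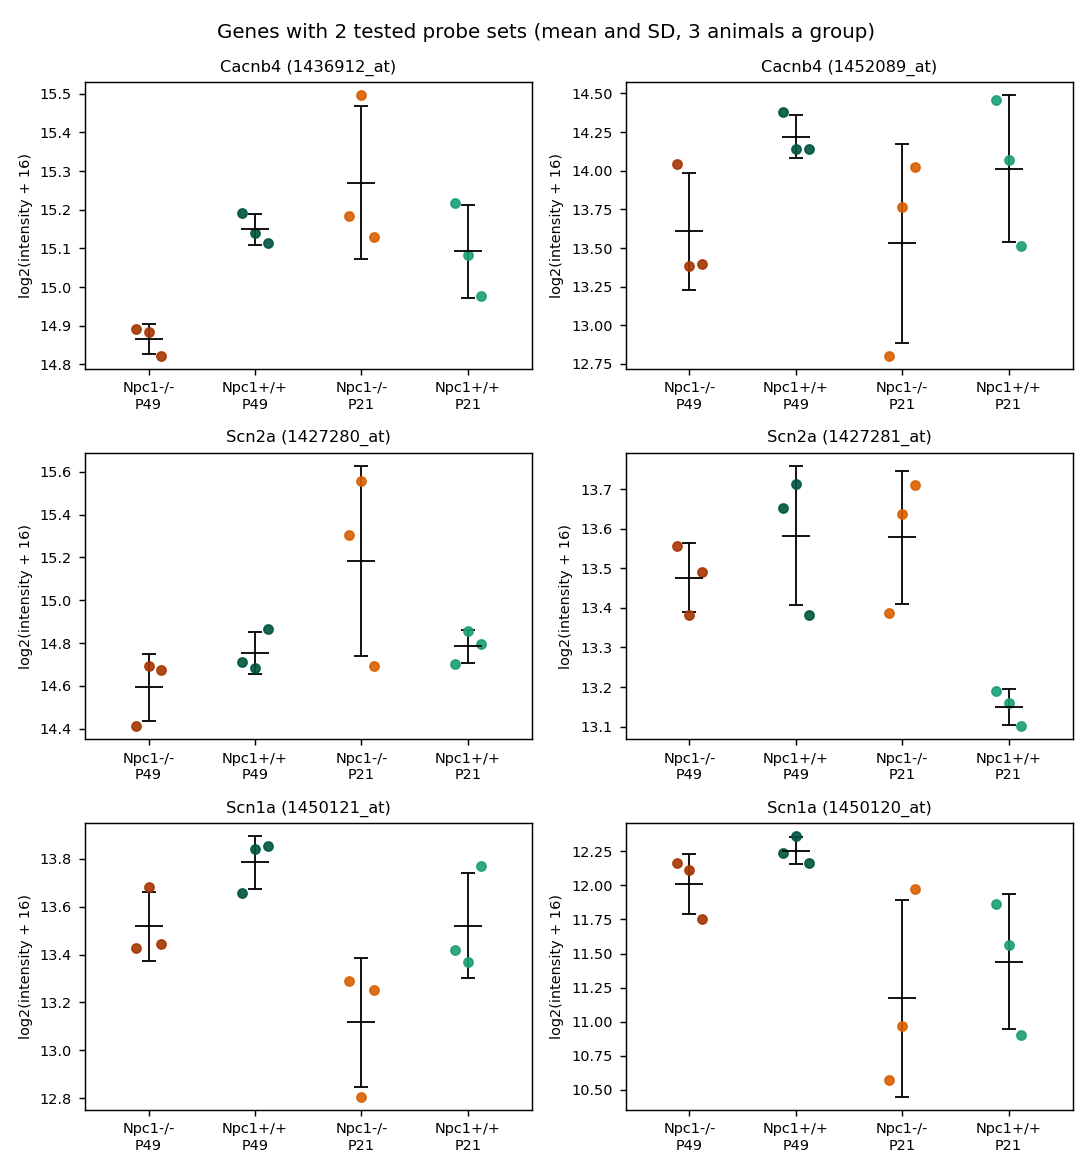
Values of both tested probe sets of Cacnb4 (top), Scn2a (middle) and Scn1a (bottom) on each of the 12 arrays, as log2(intensity + 16), with each panel on its own axis. Points are animals and bars are mean and SD; for Cacnb4 only the left probe set separates the Npc1-/- ages, and for Scn2a only the right one separates the genotypes at P21.

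Scn3b encodes an auxiliary sodium channel β subunit. It read 9.73, 10.82 and 10.15 in Npc1-/- at P49 and 11.05, 11.01 and 10.98 in Npc1-/- at P21. In Npc1+/+ it read 10.08, 10.18 and 10.17 at P49 and 10.82, 10.79 and 11.12 at P21. In both genotypes all P49 animals lay below all P21 animals. The differences were -0.78 ± 0.24 in Npc1-/- (adjusted p = 0.083) and -0.77 ± 0.24 in Npc1+/+ (adjusted p = 0.258). The Npc1-/- difference was called without Npc1-/- P49 replicate 2, at -1.08 (adjusted p = 0.0233). Hcn2, the one tested HCN gene, read 12.08, 12.36 and 12.36 in Npc1-/- at P49 and 12.43, 12.36 and 12.29 in Npc1+/+ at P49. At P21 it read 11.94, 13.38 and 12.24 in Npc1-/- and 11.92, 12.34 and 12.43 in Npc1+/+, with Npc1-/- replicate 2 the highest of all. Both comparisons overlapped, and the difference at P21 was 0.29 ± 0.28 (adjusted p = 0.715). Its direction turned to -0.14 without Npc1-/- P21 replicate 2 and to -0.24 without the 3 arrays against their sex label, and it was called in none of 22 alternative analyses.

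Groups that did not overlap between P49 and P21 were found for 9 of 24 members in Npc1-/- (1 higher and 8 lower at P49), against 21.2% of all probe sets in either direction. In Npc1+/+ they were found for 5 of 24 (2 higher and 3 lower), against 20.7% in either direction, which is near the background. The share of each direction alone is not given. The Npc1-/- P49 arrays also enter the count for genotype at P49. The change of the genotype difference between the ages was called for no member, against 0.427% of all probe sets, and 4 members were at an unadjusted p under 0.05 (Cacnb4, both Scn2a probe sets and Cacng2), against 7.73% of all. Of the Purkinje cell markers, 11 of 13 were lower at P49 than at P21 in Npc1-/- (median difference -0.65), and in Npc1+/+ none was called with limma and 1 was at an unadjusted p under 0.05. Cacna2d2 was not called with age in Npc1-/-, at -0.23 ± 0.14 (adjusted p from limma 0.404). Without the 3 arrays against their sex label that difference turned to 0.03. Myelin markers also differed with age: 4 of 8 were lower at P49 in Npc1+/+ (median difference -0.80) and 2 of 8 in Npc1-/- (median difference -0.43). Microglia markers were higher at P49 than at P21 in Npc1-/- for 6 of 8 (median difference 1.94). Of the 7 markers of astrocytes and Bergmann glia, Gfap (2.52) and Aqp4 (0.65) were higher and Gdf10 (-0.53) lower. In Npc1+/+ none of either list was called with limma or was at an unadjusted p under 0.05. The part of these markers in the age results was not tested.

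For 6 genes 2 probe sets were tested: Cacna1a, Cacna1d, Cacnb4, Scn1a, Scn2a and Scn8a. The genotype difference at P49 had the same sign in both probe sets for all 6 genes, and at P21 for 3 of 6. The age difference had the same sign for 5 of 6 genes in Npc1-/- and for 4 of 6 in Npc1+/+. Probe sets whose names end in _a_at or _s_at may detect several transcripts, and which isoforms each reports was not analysed here.

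Without the filter, Scn11a joined the called members with age. It encodes Nav1.9, a sodium channel of sensory neurons, and is named after its values were seen. Its probe set read 7.90, 8.44 and 8.63 in Npc1-/- at P49 and 10.42, 10.48 and 9.97 in Npc1-/- at P21. In Npc1+/+ it read 8.83, 7.94 and 8.20 at P49 and 9.93, 9.82 and 9.50 at P21. Every P49 animal lay below every P21 animal. In the fit of all 22626 probe sets the difference was -1.97 ± 0.35 in Npc1-/- (adjusted p = 0.00967) and -1.42 ± 0.35 in Npc1+/+ (adjusted p = 0.169). All P49 values were below the filter intensity, so the size of the change is uncertain.

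Of 39 listed partners of these channels, 27 had a probe set and 23 were tested. None was called between the genotypes by limma at P49 or at P21, against 2.08% and 0.081% of all probe sets. At each age 3 were at an unadjusted p under 0.05, against 10.5% of all probe sets at P49 and 9.83% at P21. With age in Npc1-/-, 2 fell and 2 rose, against 4.58% of all probe sets called in either direction. At an unadjusted p under 0.05 there were 8 partners, and 19.8% of all probe sets. Ank3, which encodes the ankyrin that anchors sodium channels at the axon initial segment, fell by 0.59 ± 0.16 (adjusted p = 0.0469). It read 15.04, 15.40 and 15.44 in Npc1-/- at P49 and 16.14, 16.03 and 15.49 at P21. Npc1-/- P21 replicate 3 lay within the Npc1+/+ P21 range of 15.36 to 15.69. S100a10, which carries some sodium channels to the membrane, rose by 0.65 ± 0.16 (adjusted p = 0.0366). It read 12.96, 13.12 and 13.05 in Npc1-/- at P49 and 12.24, 12.70 and 12.24 at P21. Cabp1, a calcium-binding regulator of calcium channels, rose by 0.51 ± 0.13 (adjusted p = 0.0411). It read 12.17, 12.14 and 11.96 in Npc1-/- at P49 and 11.44, 11.68 and 11.60 at P21. These calls were near the threshold, and alternative analyses are not given for the partners. Stx1a, a syntaxin of the release machinery that binds presynaptic calcium channels, fell in both genotypes. It read 10.28, 10.58 and 10.38 in Npc1-/- at P49 and 11.65, 11.39 and 11.47 in Npc1-/- at P21. In Npc1+/+ it read 10.23, 9.52 and 10.23 at P49 and 11.61, 11.52 and 11.71 at P21. Neither genotype overlapped between the ages. The differences were -1.09 ± 0.20 in Npc1-/- (adjusted p = 0.00773) and -1.62 ± 0.20 in Npc1+/+ (adjusted p = 0.00319). The name of its probe set ends in _x_at, so its probes may also detect other transcripts.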

How the data were processed

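The deposited table holds linear intensities of 22690 probe sets (64 of them controls) on 12 arrays. How the authors summarised probes, and the genome build, is not given in the sources used here. Per the labels each replicate was an individual animal. Ages were taken from the time point labels, since a shared protocol names P21 for every animal. Genes were named from the platform annotation, updated with a RefSeq table of GRCm38.p6. Of the probe sets, 20380 had 1 symbol, 691 several and 1555 none listed.

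From the deposited intensities, log2(value + 16) was quantile normalised and probe sets with a mean at or above the 40th percentile were kept. Differences on this scale understate the change of dim genes. Contrasts of 4 group means over all 12 arrays were tested two-sided in limma 3.58.1 (R 4.3.3) with eBayes and a mean-variance trend, and p-values were adjusted by Benjamini-Hochberg over 13576 probe sets. The method was tested on simulated data. Figures were drawn with matplotlib 3.10.9. Sequences are from RefSeq promoter windows, and all 3 called genes were matched.

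The members and lists were chosen with earlier results of these data known. Values of every array are given for each member called in at least 1 comparison and, in each subunit class, for the tested members with the highest mean and with the smallest unadjusted p. Further probe sets of those genes and the called channel partners are given beside them. Other members are given by counts, and those named for groups that did not overlap or for a difference were chosen after their values were seen. The labels number replicates 1 to 3 in each group without saying what a number shares. Deviations of same-numbered arrays correlated at 0.171, 0.111 and 0.118 between the genotypes at P49, which met the limit of 0.1 set for pairing, but not between the genotypes at P21 (-0.132, 0.123 and -0.221) or between ages (0.154, 0.064 and 0.111 in Npc1+/+, and -0.045, 0.023 and -0.076 in Npc1-/-). A calcium channel gene left out of the selection is not reported here.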

Additional observations from a re-analysis of the deposited data

How the results depend on the processing

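Each of the 5 comparisons was repeated with other scalings, pseudocounts of 64 and 1, no filter, 1 probe set per gene, only the arrays compared, the replicate block, no mean-variance trend, without the 3 arrays against their sex label, and without each array in turn. The 4 calls of the main analysis kept their direction in all alternatives. Of the members called only in an alternative, Cacng7 with age in Npc1-/- turned sign in another, as given above. The count of members lower in Npc1-/- at P49 (1 in the main analysis) was 2 with only the arrays compared (Cacnb4 and Cacna2d2). It was 0 with the replicate block, 0 without the trend and 0 to 1 without single arrays. The count lower with age in Npc1+/+ (1) was 2 with only the arrays compared (Cacna2d3 and Cacna1d). It was 0 with the replicate block, 0 without the trend and 0 to 1 without single arrays. The count lower with age in Npc1-/- (2) was 5 with median scaling, 3 with 1 probe set per gene (Cacna2d3, Cacng2 and Cacnb4, of 18 tested), 1 with only the arrays compared, 1 without the trend, 5 without the arrays against their sex label and 1 to 5 without single arrays, the 5 being without Npc1-/- P21 replicate 3. The count higher with age in Npc1-/- (0) was 2 without the arrays against their sex label, a fit that leaves 1 Npc1-/- P21 array and assumes that it varies like the others, and 0 to 1 without single arrays. The count lower in the change of the genotype difference (0) was 0 to 1 without single arrays. The replicate block changed no other member call. Over all probe sets, counts of higher and lower calls with only the arrays compared were 319 and 224 for genotype at P49, 82 and 60 for age in Npc1-/-, 53 and 118 for age in Npc1+/+ and 0 and 0 for genotype at P21. Without the arrays against their sex label they were 296 and 214 for genotype at P49 and 575 and 389 for age in Npc1-/-. The causes were not tested. With 3 animals per group, the call on Cacna2d2 depends on single arrays, and dim members could not be judged against the background.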
